A study of Mus musculus with 12 samples.

Results

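The genes described here are 33 known transcriptional targets of the tumour suppressor p53, followed on 12 arrays of mouse embryonic fibroblasts. They were chosen by gene name for their roles in cell death, arrest, repair and metabolism, and found on the array through the RefSeq name of each probe's accession. All 33 passed the filter on dim probes and are among 14444 genes tested, of 21367 named genes on the array. The study asked how cells transformed after senescence differ from transformed cells that never went through it.

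The fibroblasts came from C57BL/6 embryos at E12.5 to E13.5, and every group carried at least 1 viral vector. RASV12-first cells received the oncogene RASV12, an activated form of the signalling protein RAS, and then a short hairpin against p53 (shp53). In shp53-first cells the same vectors were given in the opposite order. RASV12 cells and shp53 cells carried 1 of the vectors alone. Each group has 3 arrays, described by the submitters as independent biological replicates, and each replicate number lies on a slide of its own that holds all 4 groups. No group without a vector was analysed here, and the labels used here do not give the promoters that drive the vectors or say whether embryos were pooled.

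p53 is a transcription factor that is stabilised by DNA damage and by oncogene activation. Its targets halt the cell cycle, promote apoptosis, repair DNA and adjust metabolism. In primary fibroblasts an activated RAS gene engages p53, and the arrest that follows is oncogene-induced senescence. Fibroblasts that lack p53 function keep dividing with the same oncogene.

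A level below is the log2 processed signal of a gene's probe minus the 75th percentile of its array. Levels of different probes are not compared with each other. Group means are given with the SD over 3 arrays. A difference is a limma estimate on that scale with its standard error (SE), and a gene was called where its Benjamini-Hochberg adjusted p over all 14444 genes was under 0.05. An exact permutation test of 3 arrays a side, two-sided, has 0.1 as its smallest p, so the p-values rest on limma's model across genes.

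Across arrays, 56.6 to 62.4% of the spots that are not controls were well above background. In each group 1 array stood apart from a close pair. The pairs had r from 0.993 to 0.998 across the tested genes, against 0.967 to 0.981 for the arrays that stood apart. These were RASV12-first 1, shp53-first 1, RASV12 2 and shp53 2. All 10 fibroblast markers were well above background on all 12 arrays. Of 10 macrophage and leukocyte markers, 4 to 5 were well above background on the RASV12-first arrays, 4 to 5 on the shp53-first arrays, 7 to 8 on the RASV12 arrays and 10 on the shp53 arrays. Their signals, each divided by its array's 75th percentile and summed, were 5.46 to 8.85, 7.95 to 11.3, 8.80 to 20.4 and 12.4 to 100.5 in the same order of groups. The leukocyte markers Ptprc and Cx3cr1 were well above background on the shp53 arrays only. The part of this difference in the results below was not tested. In these bulk samples, fewer cells of a type and less RNA per cell cannot be told apart.

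The hairpin's own target was checked first. Trp53, the gene for p53, read -4.14, -4.01 and -3.83 on the RASV12-first arrays, -3.98, -3.43 and -3.44 on the shp53-first arrays and -3.22, -3.55 and -3.06 on the shp53 arrays. The RASV12 arrays read -0.35, -0.75 and -0.58, so that all 9 arrays with the hairpin lay below all 3 without it. The difference was -3.06 ± 0.16 (adjusted p = 1.49e-06, limma). Cdkn1a, the p21 inhibitor of cyclin-dependent kinases, and Mdm2, the ubiquitin ligase that degrades p53, are classical p53 targets outside the 33. Cdkn1a differed by -1.12 ± 0.13 (adjusted p = 0.000206) and Mdm2 by -1.41 ± 0.11 (adjusted p = 2.16e-05) between the hairpin groups and RASV12 cells. A second, dimmer Cdkn1a probe, also well above background on all 12 arrays, differed by -1.98.

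p53 binds DNA as a tetramer at a pair of 10-base half-sites, and parts of the start regions of 5 targets with such a half-site are shown: 3 that fell with the hairpin, the 1 that rose, and Ei24, which was not called. RefSeq windows from 250 bases before to 50 bases after a gene's start (build GRCm38.p6) were found for 25 of the 33 genes, by symbol. No window was used for Tnfrsf10b, Rrm2b, Zmat3, Xpc, Ptp4a3, Trp53inp1, Pmaip1 and Perp. The p53 half-site consensus, searched on both strands, was present in 9 of the 33 windows of these genes and in 8.36% of all 32851 windows. The 9 windows belong to 8 genes, Abhd4, Aen, Bax, Ccng1, Ddit4l, Ei24, Polk and Sesn1. Both windows of Aen overlap and hold the same half-site, which is counted in each. A pair of half-sites at most 13 bases apart, with 1 mismatch allowed in 1 of them, was present in 1 of the 33 windows, that of Ccng1, and in 0.627% of all windows. In the sequences below, read along the gene's strand, capitals mark the half-site, or the pair in Ccng1. Ccng1 is at chr11:40755422-40755521 on the minus strand, and its downstream half-site starts at position -185 from the gene's start. Ddit4l is at chr3:137623542-137623631 on the plus strand (half-site at -90), and Bax is at chr7:45467050-45467139 on the minus strand (-201). Ei24 is at chr9:36797335-36797384 on the minus strand (-10), and Sesn1 is at chr10:41887226-41887315 on the plus strand (-173).
Ccng1: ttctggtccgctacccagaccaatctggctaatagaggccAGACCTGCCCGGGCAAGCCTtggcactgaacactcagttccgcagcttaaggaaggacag
Ddit4l: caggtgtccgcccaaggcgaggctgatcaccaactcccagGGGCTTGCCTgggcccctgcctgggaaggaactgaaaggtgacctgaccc
Bax: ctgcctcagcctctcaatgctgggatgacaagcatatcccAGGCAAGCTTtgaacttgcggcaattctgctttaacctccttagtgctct
Ei24: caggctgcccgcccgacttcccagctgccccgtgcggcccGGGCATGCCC
Sesn1: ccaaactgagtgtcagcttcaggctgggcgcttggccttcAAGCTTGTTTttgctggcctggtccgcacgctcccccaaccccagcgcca
Of the 8 genes with a half-site, Ccng1, Ddit4l and Bax fell with the hairpin, Sesn1 rose, and Abhd4, Aen, Ei24 and Polk were not called, as described next. On both strands, the GC box GGGCGG was in 25 of the 33 windows and in 35.7% of all windows, and the AP-1 site TGACTCA was in 1 of the 33, that of Fas, and in 5.2% of all windows. The 4 bases CATG, which lie inside the half-site of Ei24, were in 14 of the 33 windows and in 61.1% of all windows. A match describes these letters and not binding.

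The first comparison set the 3 groups that carry the hairpin, as the mean of their group means, against RASV12 cells, and asked which targets differ where the hairpin is present. Of the 33 targets 23 fell and 1 rose in the hairpin groups, and 9 were not called. The called share was 72.7%, against 28.6% of all tested genes in either direction, 11.7% higher and 17% lower. The median difference of the targets was -0.66, against -0.06 over all genes, and 32 of 33 differences were negative. Among the 33, Perp had the largest difference, and Sesn1 was the target that rose. The targets are ordered by role in the map of levels by array and in the plot of differences.

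**Figure D1:**
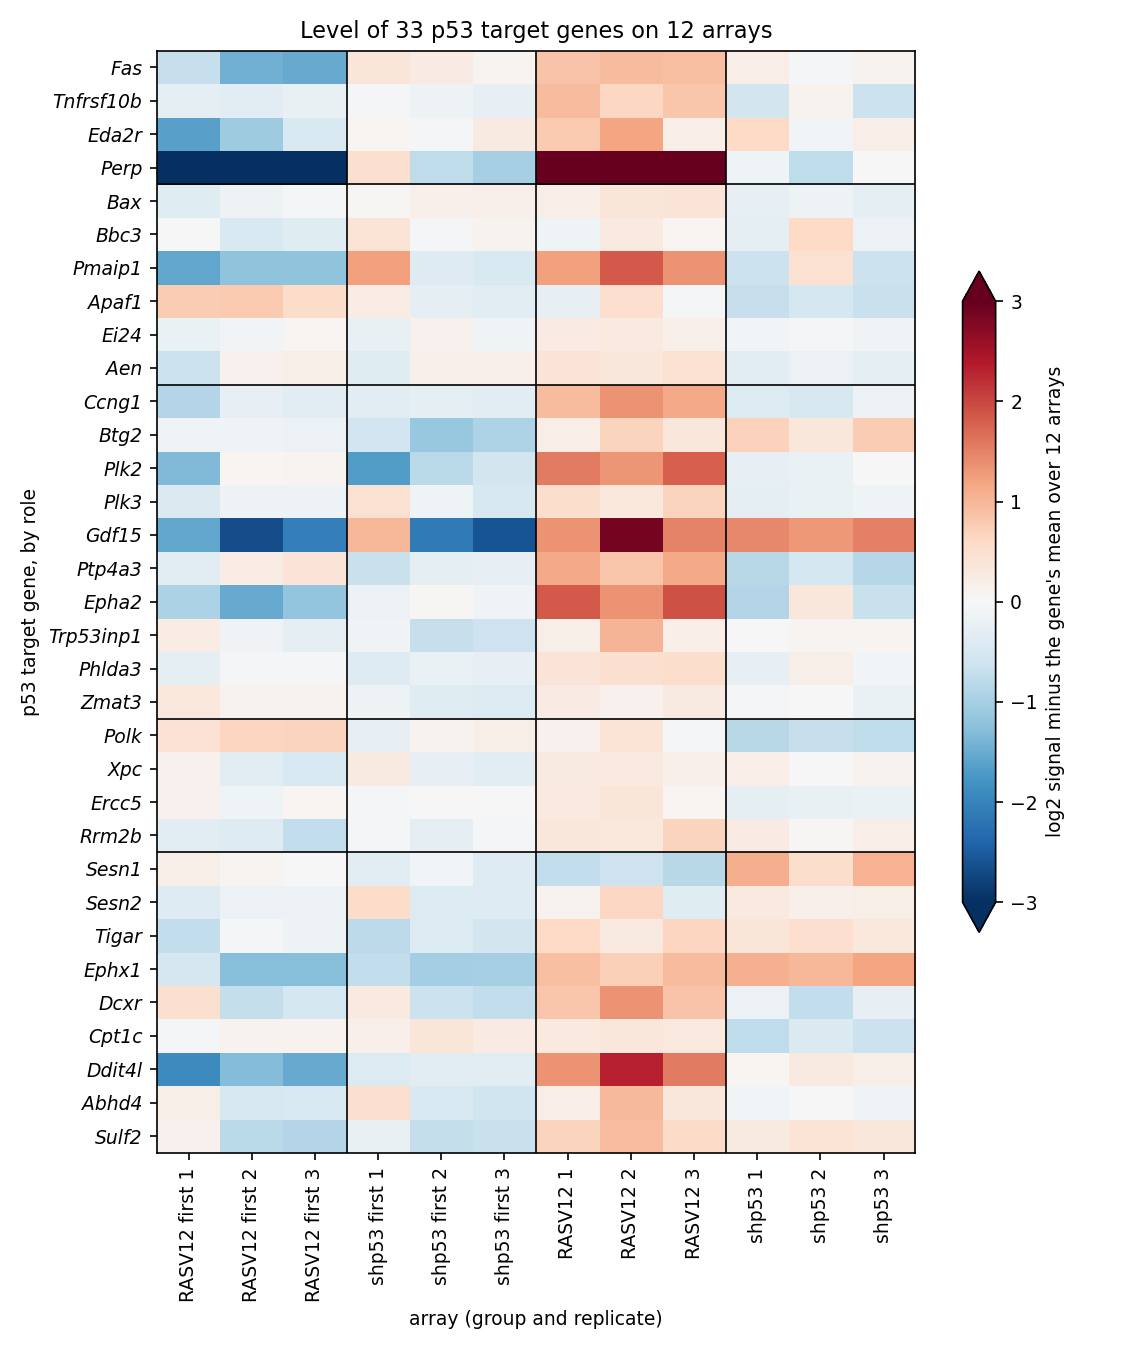
Level of each of the 33 targets (rows, ordered by role: death receptors and membrane proteins, mitochondrial and nuclear death genes, arrest and signalling genes, repair genes, metabolism and stress genes) on each of the 12 arrays (columns), as log2 signal minus the gene's mean over the arrays. The RASV12 arrays are red for most rows, and Perp runs past both ends of the scale of -3 to 3.

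**Figure D2:**
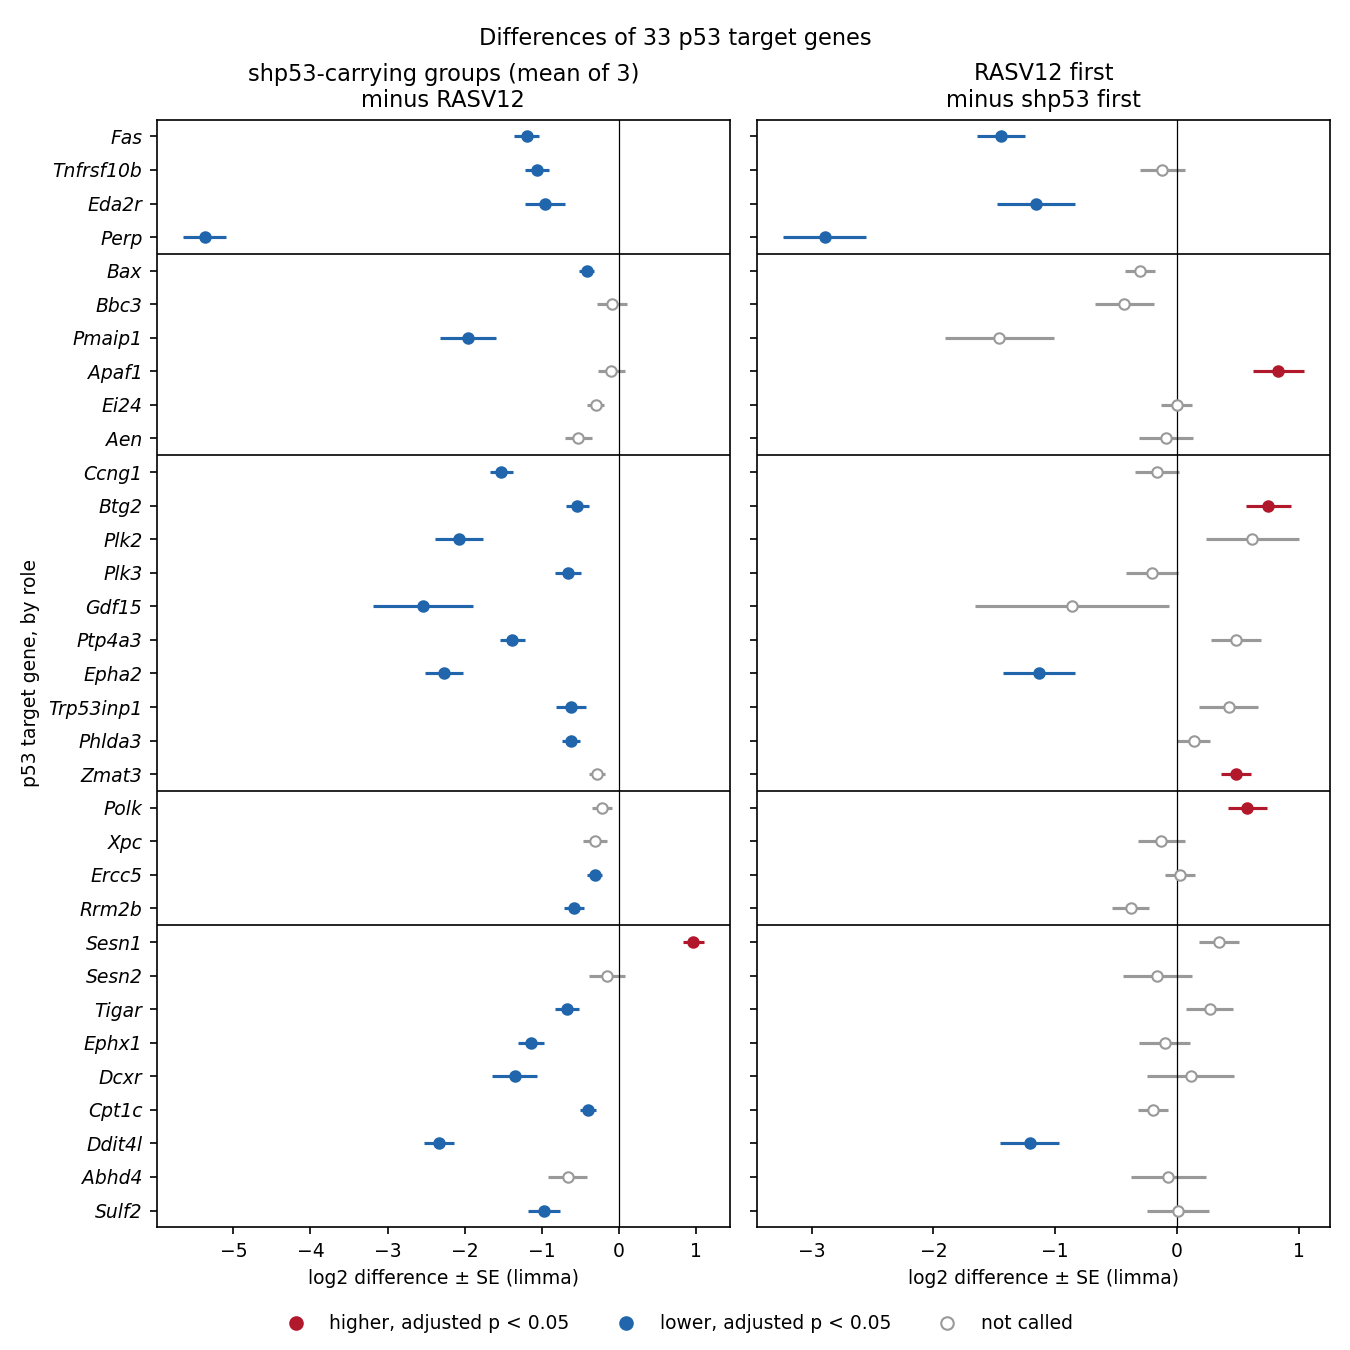
Log2 difference ± SE from limma for each target (rows, by role), left for the hairpin groups minus RASV12 cells and right for RASV12-first minus shp53-first cells. On the left 23 points are called lower and 1, Sesn1, higher. On the right 5 are called lower and 4 higher. Eda2r was not well above background in RASV12-first cells, so its points rest partly on readings near background. They are limma estimates and not bounds.

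All 4 death receptors and membrane proteins were called lower in the mean of the hairpin groups. Perp, a membrane protein of desmosomes that takes part in p53-dependent apoptosis, read -3.15, -3.27 and -3.08 on the RASV12-first arrays, 0.64, -0.60 and -0.86 on the shp53-first arrays and 0.03, -0.61 and 0.17 on the shp53 arrays. On the RASV12 arrays it read 4.23, 4.06 and 4.26. No array with the hairpin came within 3 log2 units of those without it, and the RASV12-first arrays lay lowest. The difference of -5.37 ± 0.28 (adjusted p = 1.49e-06) was a 41.5-fold lower signal. Fas, the receptor of Fas ligand, read 0.10, -0.63 and -0.71 in RASV12-first, 1.16, 1.05 and 0.89 in shp53-first and 0.99, 0.75 and 0.91 in shp53 cells, against 1.66, 1.74 and 1.70 in RASV12 cells. All its hairpin arrays lay below the RASV12 arrays too (-1.20 ± 0.16, adjusted p = 0.000541). Tnfrsf10b, a receptor for the death ligand TRAIL, averaged 1.96 ± 0.05, 2.08 ± 0.09 and 1.87 ± 0.40 in RASV12-first, shp53-first and shp53 cells, against 3.03 ± 0.17 in RASV12 cells. It differed by -1.06 ± 0.15 (adjusted p = 0.000756).

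Eda2r, a receptor of ectodysplasin A2, was the target nearest to background. It was well above background on 0 of 3 RASV12-first arrays, 1 shp53-first array, 3 RASV12 arrays and 3 shp53 arrays, while the other 32 targets were so on all 12. It read -6.87, -6.31 and -5.71 in RASV12-first, -5.19, -5.27 and -4.96 in shp53-first and -4.63, -5.33 and -5.05 in shp53 cells, against -4.45, -4.07 and -5.04 in RASV12 cells. The readings of the hairpin arrays and the RASV12 arrays overlapped. Taken singly against RASV12 cells, only RASV12-first cells were called lower, and shp53-first and shp53 cells were not called apart from them. The fit gave -0.96 ± 0.26 (adjusted p = 0.0208), and the call was lost without RASV12 1 (-0.93, adjusted p = 0.0834) or RASV12 2 (-0.74, adjusted p = 0.0957). Over all alternatives its adjusted p ran between 0.0102 and 0.753, and the difference turned to 1.04 with normexp background correction.

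Of 6 mitochondrial and nuclear death genes 2 fell and 4 were not called. Pmaip1 (Noxa), a BH3-only protein that blocks survival proteins of the BCL2 family, read 0.30, 0.66 and 0.66 in RASV12-first, 3.11, 1.47 and 1.41 in shp53-first and 1.22, 2.34 and 1.23 in shp53 cells, against 3.1, 3.70 and 3.21 in RASV12 cells. The array shp53-first 1 reached the RASV12 arrays, and the others with the hairpin lay below them (-1.96 ± 0.37, adjusted p = 0.00321). Bax, which forms the pore in the outer mitochondrial membrane, averaged 4.05 ± 0.16 in RASV12-first, 4.35 ± 0.07 in shp53-first and 4.01 ± 0.06 in shp53 cells, against 4.55 ± 0.11 in RASV12 cells. It differed by -0.42 ± 0.10 (adjusted p = 0.0108), and by -0.38 without RASV12 3 (adjusted p = 0.0628, between 0.00499 and 0.182 over all alternatives). Bbc3 (Puma), the other BH3-only gene, differed by -0.09 ± 0.20 (adjusted p = 0.776). Apaf1, the scaffold of the apoptosome, differed by -0.10 ± 0.17 (adjusted p = 0.707), Ei24, an endoplasmic reticulum membrane protein, by -0.30 ± 0.11 (adjusted p = 0.0556), and the nuclease gene Aen by -0.53 ± 0.18 (adjusted p = 0.0521).

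Of 10 arrest and signalling genes 9 fell. Ccng1, cyclin G1, read 2.38, 3.02 and 2.93 in RASV12-first, 2.91, 2.95 and 2.95 in shp53-first and 2.86, 2.78 and 3.09 in shp53 cells, against 4.22, 4.59 and 4.39 in RASV12 cells. The 3 hairpin groups overlapped each other, and all their arrays lay more than 1 log2 unit below the RASV12 arrays (-1.53 ± 0.15, adjusted p = 7.48e-05). The polo-like kinase gene Plk2 read 0.22, 1.59 and 1.63 in RASV12-first, -0.13, 0.72 and 0.99 in shp53-first and 1.28, 1.32 and 1.52 in shp53 cells, against 3.09, 2.86 and 3.32 in RASV12 cells (-2.07 ± 0.31, adjusted p = 0.000989). Epha2, an ephrin receptor kinase, read 0.10, -0.46 and -0.14, 0.88, 1.08 and 0.94 and 0.18, 1.40 and 0.38 in the same order of groups, against 2.89, 2.40 and 2.97 in RASV12 cells. Both genes were lower on all 9 hairpin arrays than on any RASV12 array, and Epha2 differed by -2.27 ± 0.24 (adjusted p = 0.000135). Ptp4a3, the phosphatase PRL-3, averaged 0.09 ± 0.36 in RASV12-first, -0.40 ± 0.23 in shp53-first and -0.75 ± 0.19 in shp53 cells, against 1.03 ± 0.18 in RASV12 cells (-1.38 ± 0.17, adjusted p = 0.000282).

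The remaining arrest and signalling genes moved less, or with more spread. Phlda3, which competes with the kinase AKT for membrane lipids, averaged 4.71 ± 0.14 in RASV12-first, 4.58 ± 0.09 in shp53-first and 4.79 ± 0.21 in shp53 cells, against 5.32 ± 0.08 in RASV12 cells (-0.62 ± 0.11, adjusted p = 0.00278). Gdf15, a secreted stress cytokine, read -4.14, -5.24 and -4.62 in RASV12-first, -1.58, -4.69 and -5.16 in shp53-first and -1.13, -1.28 and -1.06 in shp53 cells, against -1.23, 0.30 and -1.09 in RASV12 cells. The shp53 arrays overlapped the RASV12 arrays, and the low arrays were those of the groups with both vectors. Its difference was -2.54 ± 0.65 (adjusted p = 0.0154), and -2.06 without RASV12 2 (adjusted p = 0.0729, between 8.68e-05 and 0.235 over all alternatives). Btg2, an antiproliferative protein, read 0.56, 0.56 and 0.48 in RASV12-first, 0.09, -0.47 and -0.27 in shp53-first and 1.36, 0.99 and 1.43 in shp53 cells, against 0.87, 1.33 and 0.99 in RASV12 cells. Here too the shp53 arrays overlapped the RASV12 arrays (-0.54 ± 0.15, adjusted p = 0.023). Its call was lost without RASV12 2 (-0.41, adjusted p = 0.1) or RASV12 3 (-0.57, adjusted p = 0.0656), and over all alternatives its adjusted p reached 0.184. Plk3, another polo-like kinase gene, differed by -0.66 ± 0.17 (adjusted p = 0.0176), but by -0.65 without RASV12 1 (adjusted p = 0.0728) and -0.58 without RASV12 3 (adjusted p = 0.0915, up to 0.226 over all alternatives). Trp53inp1, a stress protein that acts with p53, differed by -0.62 ± 0.20 (adjusted p = 0.0401). Of the 12 fits that left out 1 array, 10 lost its call, all but those without RASV12-first 1 and shp53-first 1, at -0.76 to -0.35 (adjusted p between 0.0519 and 0.172, up to 0.218 over all alternatives). Zmat3, an RNA-binding zinc finger protein, differed by -0.29 ± 0.10 and was not called (adjusted p = 0.0565).

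Of 4 repair genes, Rrm2b and Ercc5 fell. Rrm2b, a ribonucleotide reductase subunit that supplies nucleotides for repair, averaged -4.22 ± 0.22 in RASV12-first, -3.84 ± 0.13 in shp53-first and -3.57 ± 0.10 in shp53 cells, against -3.29 ± 0.19 in RASV12 cells (-0.59 ± 0.13, adjusted p = 0.00658). With normexp its difference turned to 0.71. Ercc5, the XPG endonuclease of nucleotide excision repair, differed by -0.32 ± 0.10 (adjusted p = 0.0398). Its call was lost in 8 of the 12 fits that left out 1 array, all but those without RASV12-first 1, shp53-first 1, RASV12 3 and shp53 2, at -0.32 to -0.26 (adjusted p between 0.0573 and 0.161, up to 0.662 over all alternatives). The damage sensor Xpc (-0.31 ± 0.16, adjusted p = 0.157) and the translesion polymerase Polk (-0.22 ± 0.13, adjusted p = 0.237) were not called.

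Of 9 metabolism and stress genes 6 fell and 1 rose. Ddit4l, an inhibitor of the growth kinase complex mTORC1, read -4.18, -3.56 and -3.78 in RASV12-first, -2.68, -2.61 and -2.60 in shp53-first and -2.20, -2.01 and -2.09 in shp53 cells, against -0.91, 0.06 and -0.71 in RASV12 cells. None of the 4 groups overlapped another, and RASV12-first lay lowest (-2.34 ± 0.20, adjusted p = 3.0e-05). Sesn1, which also restrains mTORC1, went the other way: it read -0.40, -0.50 and -0.58 in RASV12-first, -0.90, -0.65 and -0.97 in shp53-first and 0.52, -0.04 and 0.46 in shp53 cells, against -1.31, -1.19 and -1.41 in RASV12 cells. All 9 hairpin arrays were higher than the RASV12 arrays, and the shp53 arrays were highest (0.96 ± 0.13, adjusted p = 0.000658). Its paralogue Sesn2 was not called (-0.16 ± 0.23, adjusted p = 0.649). Dcxr, a reductase of dicarbonyls and xylulose, read 0.45, -0.74 and -0.55 in RASV12-first, 0.27, -0.67 and -0.77 in shp53-first and -0.20, -0.77 and -0.27 in shp53 cells, against 0.82, 1.33 and 0.82 in RASV12 cells (-1.35 ± 0.29, adjusted p = 0.00686). The microsomal epoxide hydrolase Ephx1 read 3.52, 2.74 and 2.74 in RASV12-first, 3.29, 3.0 and 3.01 in shp53-first and 5.07, 5.02 and 5.19 in shp53 cells, against 4.93, 4.73 and 4.97 in RASV12 cells. Its shp53 arrays lay above the RASV12 arrays, and its low arrays were those of the groups with both vectors (-1.14 ± 0.17, adjusted p = 0.000849).

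Sulf2, an enzyme that removes sulfate from heparan sulfate, averaged 1.04 ± 0.56 in RASV12-first, 1.03 ± 0.28 in shp53-first and 1.90 ± 0.06 in shp53 cells, against 2.29 ± 0.18 in RASV12 cells (-0.97 ± 0.21, adjusted p = 0.00663). Tigar, a phosphatase that slows glycolysis, averaged 0.07 ± 0.36, -0.20 ± 0.19 and 0.77 ± 0.10 in the same order, against 0.88 ± 0.20 in RASV12 cells (-0.67 ± 0.16, adjusted p = 0.0101). It lost its call without RASV12 1 (-0.63, adjusted p = 0.0567) or RASV12 3 (-0.61, adjusted p = 0.0598), and over all alternatives its adjusted p reached 0.17. Cpt1c, a carnitine palmitoyltransferase known from brain, differed by -0.40 ± 0.10 (adjusted p = 0.0128), and its low arrays were those of shp53 cells, at -0.34, -0.01 and -0.24. Its difference was -0.41 without RASV12 1 (adjusted p = 0.0539) or RASV12 3 (adjusted p = 0.0526), and its adjusted p reached 0.221 over all alternatives. Abhd4, a lipase of N-acyl phospholipids, differed by -0.67 ± 0.25 and was not called (adjusted p = 0.0708).

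Of the 24 calls, 15 were kept in each of the 12 fits that left out 1 array, and the number called in those fits ran between 18 and 27. The other 9 calls, lost in some of these fits, were those of Bax, Btg2, Cpt1c, Eda2r, Ercc5, Gdf15, Plk3, Tigar and Trp53inp1. Leaving out all 4 arrays that stood apart gave 27 called targets, where 60.1% of all genes were called. Averaging each close pair into 1 array gave 7, where 4.82% of all genes were called: Ccng1, Ddit4l, Epha2, Fas, Perp, Plk2 and Ptp4a3. Normexp background correction gave 11, where 3.99% of all genes were called. All 24 differences had the same sign on each of the 3 slides. The calls came from these same arrays, so this is no separate support. Of the 33 targets 16 had no overlap between the hairpin arrays and the RASV12 arrays, against 1802 of all 14444 tested genes.

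The second comparison asked about the order of the vectors and set RASV12-first against shp53-first cells. In RASV12-first cells 5 targets fell and 4 rose, 27.3% of the 33 against 15.8% of all genes (7.33% higher and 8.47% lower). The median difference was -0.10, against 0.00 over all genes. The falls were in Perp, Fas and Eda2r, in Ddit4l and in Epha2, and Apaf1, Btg2, Polk and Zmat3 rose. The groups did not overlap in any of the 9 genes, nor in 14 of the 33 in all, against 32.1% of all tested genes. Each called difference had the same sign on all 3 slides. For genes called from these same arrays, neither the lack of overlap nor the shared sign is separate support.

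**Figure D3:**
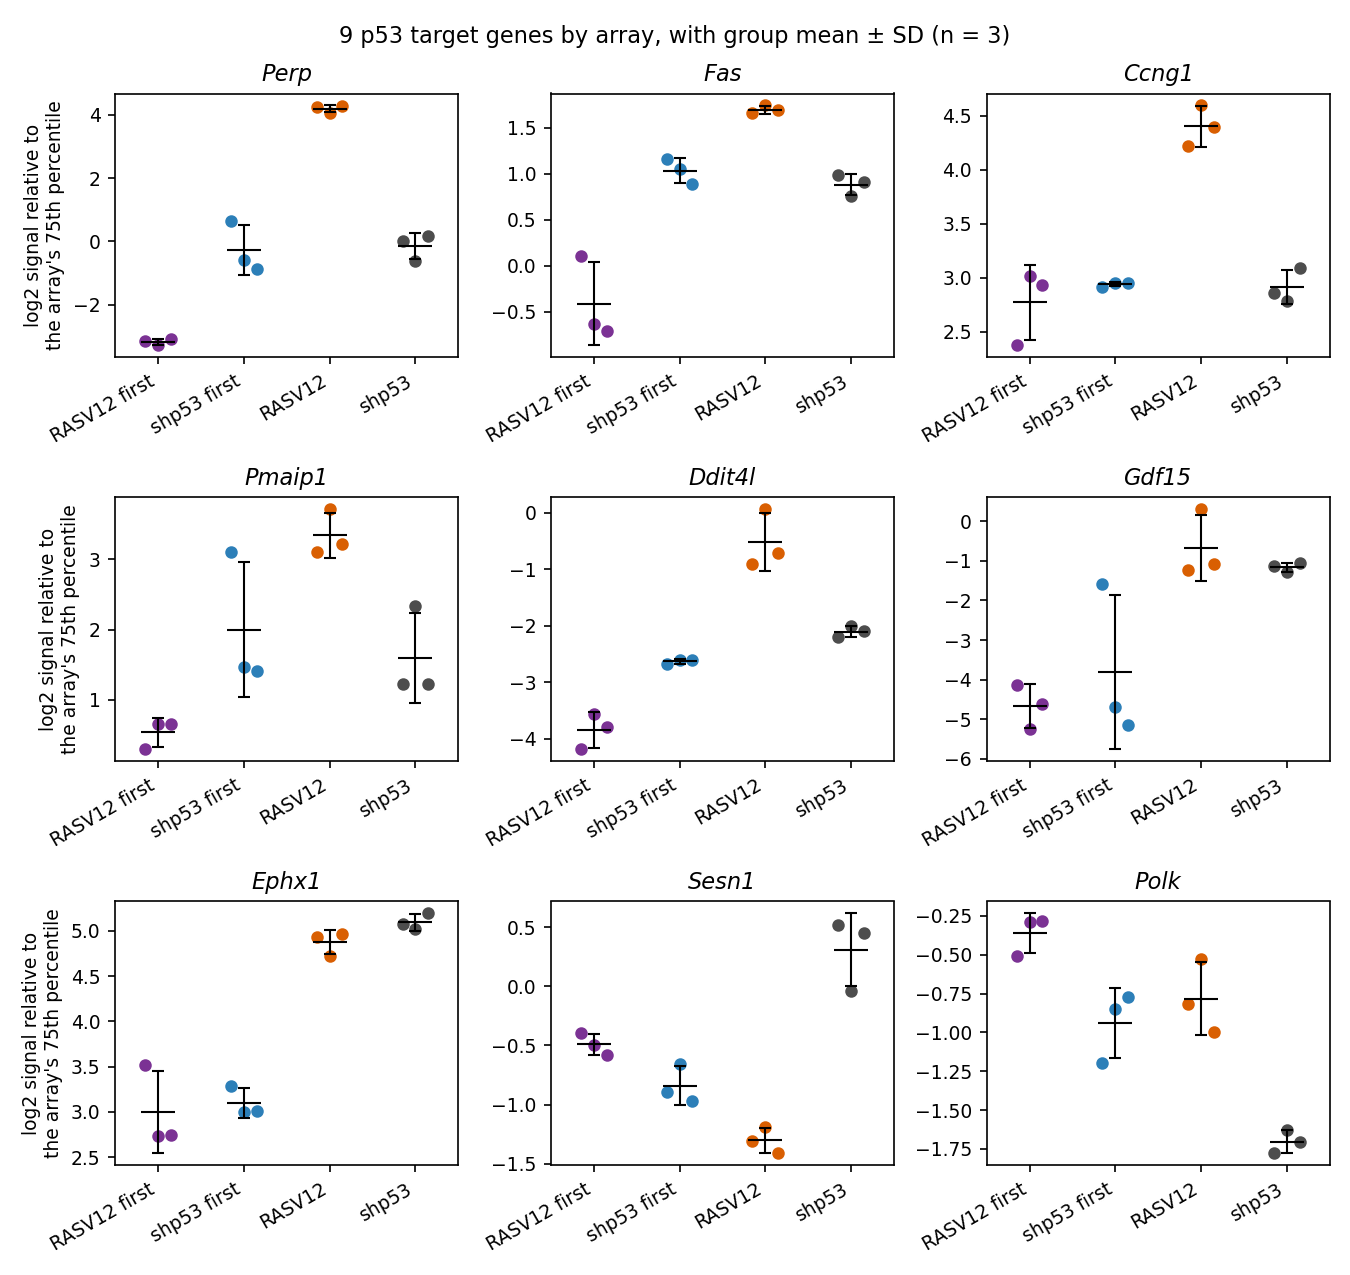
Level (vertical axis, log2 signal minus that array's 75th percentile) of 9 targets on each array (points), with the group mean and SD as bars (n = 3), for RASV12-first, shp53-first, RASV12 and shp53 cells in that order. Perp, Fas and Ddit4l are lowest in RASV12-first cells and highest in RASV12 cells. Ephx1 and Gdf15 are low in both groups with 2 vectors, Sesn1 is lowest in RASV12 cells, and Polk is lowest in shp53 cells. Vertical axes differ between panels and do not start at 0.

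Of the 4 death receptors and membrane proteins 3 were lower in RASV12-first cells. Perp averaged -3.17 ± 0.10 in RASV12-first and -0.27 ± 0.80 in shp53-first cells, 7.43-fold lower (-2.89 ± 0.34, adjusted p = 0.000303). Fas averaged -0.41 ± 0.45 in RASV12-first and 1.03 ± 0.13 in shp53-first cells (-1.45 ± 0.20, adjusted p = 0.000839). Against shp53 cells, Fas differed by -1.30 ± 0.20 in RASV12-first cells (adjusted p = 0.000508) and by 0.15 ± 0.20 in shp53-first cells (adjusted p = 0.58). Perp showed the same order, with -3.03 ± 0.34 in RASV12-first (adjusted p = 6.70e-05) and -0.14 ± 0.34 in shp53-first cells (adjusted p = 0.774). Eda2r was called lower in RASV12-first than in shp53-first cells (limma adjusted p = 0.0345), though no RASV12-first array was well above background. With those readings set to the background limit the fold was 1.58. The shp53-first mean had only 1 of 3 arrays well above background, so this fold is no firm bound. Tnfrsf10b was not called (-0.12 ± 0.19, adjusted p = 0.732).

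Ddit4l averaged -3.84 ± 0.31 in RASV12-first and -2.63 ± 0.05 in shp53-first cells (-1.21 ± 0.24, adjusted p = 0.00677), and Epha2 averaged -0.17 ± 0.28 and 0.97 ± 0.10 (-1.13 ± 0.30, adjusted p = 0.0271). Pmaip1 was lower on all 3 RASV12-first arrays, but the spread of shp53-first cells was wide and it was not called (-1.46 ± 0.45, adjusted p = 0.052). The genes that were higher in RASV12-first cells changed by less than 1 log2 unit. Apaf1 read -0.35, -0.32 and -0.55 on the RASV12-first arrays and -0.88, -1.40 and -1.43 on the shp53-first arrays (0.83 ± 0.21, adjusted p = 0.0228). Btg2 differed by 0.75 ± 0.18 (adjusted p = 0.0199), with shp53-first cells the lowest of the 4 groups. Polk, at -0.51, -0.29 and -0.28 on the RASV12-first arrays and -1.19, -0.85 and -0.77 on the shp53-first arrays, differed by 0.58 ± 0.16 (adjusted p = 0.0339). Zmat3 read 2.64, 2.45 and 2.43 on the RASV12-first arrays and 2.18, 1.97 and 1.92 on the shp53-first arrays (0.48 ± 0.12, adjusted p = 0.0247). Among the p53-induced genes outside the 33, Mdm2 was the 1 of 13 called, higher in RASV12-first cells (0.59 ± 0.14, adjusted p = 0.0152). Cdkn1a was not called, and its 2 probes differed in size: -0.44 for the probe used and -1.43 for the dimmer one. RASV12-first against shp53 cells gave -0.08 and -0.95 in the same order of probes. The dimmer probe did not enter the test.

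Only Ddit4l, Fas and Perp were called in each of the 6 fits that left out 1 array, which called between 3 and 10 targets. The calls were fewest, at 3, without RASV12-first 2 or shp53-first 2, and 5 without RASV12-first 3 or shp53-first 3. In the fits that lost them, Apaf1 stood at 0.74 to 0.79 (adjusted p between 0.0753 and 0.0842, without RASV12-first 2, shp53-first 2 or shp53-first 3). Btg2 stood at 0.63 to 0.78 (0.0526 to 0.0781), Epha2 at -1.15 to -0.99 (0.0706 to 0.098) and Zmat3 at 0.43 to 0.52 (0.0522 to 0.089), each without RASV12-first 2 or 3 or shp53-first 2 or 3. Polk stood at 0.45 to 0.62 (0.0651 to 0.106, without RASV12-first 2 or 3 or shp53-first 1 or 2) and Eda2r at -1.22 to -0.87 (0.0641 to 0.107, in all but the fit without RASV12-first 3). The 4 arrays that stood apart also moved the count. Without them 16 of the 33 targets were called, near the share of all genes, 48%. With the close pairs averaged 1, Perp, was called, and 2.94% of all genes. Same-numbered arrays of these 2 groups deviated together, and with the replicate number as a block 7 targets were called, without Eda2r (adjusted p = 0.0629) and Epha2 (0.0515). With the array median in place of the 75th percentile the calls were 6 higher and 3 lower and the targets' median was 0.15, a scaling that moved the median of all genes by 0.25. With normexp background correction limma called 0 of the 33, with 5 at an unadjusted p under 0.05, and 0.45% of all genes. The differences of Eda2r (0.66), Ddit4l (0.22) and Zmat3 (-0.059) turned with it.

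Each group with the hairpin was then set against RASV12 cells on its own. These comparisons share the RASV12 arrays. In RASV12-first cells 20 targets were lower and 2 higher (66.7%, against 38.8% of all genes, 17.2% higher and 21.7% lower), with a median of -0.76. In shp53-first cells 18 were lower (54.5%, against 25.4% of all genes, 10.2% higher and 15.1% lower), with a median of -0.69. In RASV12 cells against shp53 cells 18 were higher and 1 lower (57.6%, against 27.1% of all genes, 14.3% higher and 12.8% lower), with a median of 0.54.

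Perp had the widest differences, -7.35 ± 0.34 in RASV12-first cells (adjusted p = 2.91e-07), a 163-fold lower signal, and -4.46 ± 0.34 in shp53-first cells (adjusted p = 2.52e-05). RASV12 cells stood 4.32 ± 0.34 above shp53 cells (adjusted p = 1.50e-05). Among the death receptors all 4 fell in RASV12-first cells, including Eda2r at least 2.43-fold (adjusted p = 0.00186), whose difference turned to 1.20 with normexp. In the mitochondrial and nuclear group 2 fell (Pmaip1, -2.80 ± 0.45, adjusted p = 0.000923, and Bax, -0.51 ± 0.12, adjusted p = 0.00823) and Apaf1 rose (0.62 ± 0.21, adjusted p = 0.0383) in RASV12-first cells. In shp53-first cells limma called 0 of these 6, and Pmaip1 (-1.34 ± 0.45, adjusted p = 0.0513) and Ei24 had an unadjusted p under 0.05. Of the arrest and signalling genes 8 of 10 fell in RASV12-first cells and 9 of 10 in shp53-first cells, with Ccng1 at -1.63 ± 0.18 (adjusted p = 9.41e-05) and -1.46 ± 0.18 (adjusted p = 0.000429). Sesn1 was higher in RASV12-first cells (0.81 ± 0.17, adjusted p = 0.00358), not called in shp53-first cells (0.46 ± 0.17, adjusted p = 0.0653), and lower in RASV12 than in shp53 cells (-1.61 ± 0.17, adjusted p = 7.60e-05). The call of Apaf1 in RASV12-first cells was lost in 5 of 6 fits that left out 1 array, all but the one without RASV12 2, at 0.47 to 0.70 (adjusted p between 0.0573 and 0.143).

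The group mean was highest in RASV12 cells for 26 of the 33 targets, against 26.5% of all tested genes. The exceptions were Apaf1 and Polk, highest in RASV12-first cells, 1 gene highest in shp53-first cells, Bbc3, and 4 highest in shp53 cells, Btg2, Ephx1, Sesn1 and Sesn2. The mean was lowest in RASV12-first cells for 16, in shp53-first cells for 7, in RASV12 cells for 1 and in shp53 cells for 9, against 29.4%, 19.3%, 19.6% and 31.6% of all genes in the same order of groups. For 10 targets RASV12 cells were called above each of the other 3 groups, a pattern in 3.76% of all genes: Ccng1, Dcxr, Ddit4l, Epha2, Fas, Perp, Phlda3, Plk2, Ptp4a3 and Tnfrsf10b. Of these Dcxr lost a call in at least 1 of the fits that left out 1 array in all 3 comparisons (adjusted p up to 0.0713), Fas in shp53-first against RASV12 cells (up to 0.102) and Phlda3 in RASV12 against shp53 cells (up to 0.0816). The arrays concerned were RASV12-first 2 and 3, shp53-first 2 and 3 and RASV12 2 for Dcxr, every array but shp53-first 1 for Fas, and RASV12 3, shp53 1 and shp53 3 for Phlda3.

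The last pair of comparisons set the groups with both vectors against shp53 cells, and so asked how the targets differ with RASV12 where the hairpin is shared. In RASV12-first cells 12 targets were lower and 4 higher than in shp53 cells (48.5%, against 45.5% of all genes, 21.7% higher and 23.8% lower), and in shp53-first cells 6 were lower and 3 higher (27.3%, against 37.6% of all genes, 17.3% higher and 20.3% lower). Both shares were near or under those of all genes. These comparisons share the shp53 arrays. In each of them 9 of the 10 macrophage and leukocyte markers were also lower than in shp53 cells. Of the 10, at least Ptprc and Cx3cr1 passed the filter only through the shp53 cells. The part of these markers in the targets' values was not tested.

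**Figure D4:**
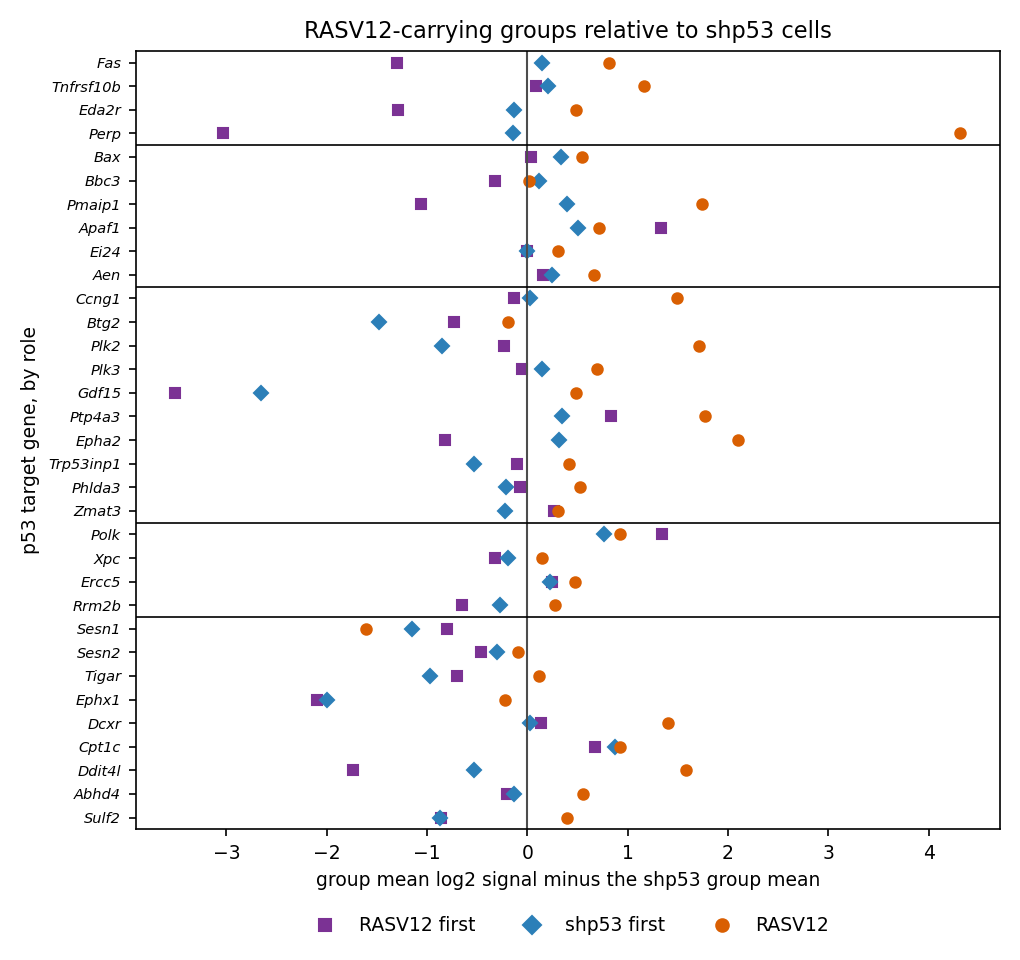
Difference between the group mean and the shp53 group mean (horizontal axis, log2) for each target (rows, by role), with squares for RASV12-first, diamonds for shp53-first and circles for RASV12 cells. The circles lie right of 0 for 29 of the 33 targets. The squares and diamonds of Gdf15, Ephx1, Sulf2, Tigar and Btg2 lie left of it.

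Btg2, Ephx1, Gdf15, Sulf2 and Tigar were lower in both groups with 2 vectors than in either group with 1. The share of all genes with this joint pattern was not determined. Taken singly, 21.7% of all genes were lower in RASV12-first and 15.1% in shp53-first than in RASV12 cells. Against shp53 cells these shares were 23.8% and 20.3%. Ephx1 differed by -2.10 ± 0.21 in RASV12-first (adjusted p = 2.68e-05) and -1.99 ± 0.21 in shp53-first cells (adjusted p = 5.51e-05), and RASV12 cells did not differ from shp53 cells by the test (-0.22 ± 0.21, adjusted p = 0.473). Gdf15 differed by -3.51 ± 0.80 in RASV12-first (adjusted p = 0.00495) and -2.65 ± 0.80 in shp53-first cells (adjusted p = 0.0246). The array shp53-first 1 read -1.58, near the shp53 arrays, against -4.69 and -5.16 on shp53-first 2 and 3. Tigar differed by -0.70 ± 0.19 (adjusted p = 0.0132) and -0.98 ± 0.19 (adjusted p = 0.00308) in the same order, Sulf2 by -0.86 ± 0.25 (adjusted p = 0.0192) and -0.87 ± 0.25 (adjusted p = 0.0219), and Btg2 by -0.73 ± 0.18 (adjusted p = 0.00905) and -1.48 ± 0.18 (adjusted p = 0.000186). Gdf15 in shp53-first cells lost its call without shp53-first 2 or 3 or shp53 1 or 3 (-2.64 to -1.98, adjusted p between 0.065 and 0.0921). Sulf2 lost it in RASV12-first cells without RASV12-first 2 or 3 or shp53 3 (-0.86 to -0.68, 0.0515 to 0.0768) and in shp53-first cells in all fits but that without shp53-first 1 (-0.90 to -0.78, 0.0521 to 0.0755). Against RASV12 cells, Gdf15 in shp53-first cells lost its call without shp53-first 2 or 3 or RASV12 2 (adjusted p up to 0.0658), and Btg2 in RASV12-first cells in all fits but that without RASV12 1 (up to 0.136).

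A few targets were higher with both vectors than with the hairpin alone. Polk was higher than in shp53 cells in RASV12-first (1.34 ± 0.16, adjusted p = 9.61e-05), shp53-first (0.77 ± 0.16, adjusted p = 0.00413) and RASV12 cells (0.92 ± 0.16, adjusted p = 0.0019), with no overlap with the shp53 arrays at -1.77, -1.63 and -1.71. Cpt1c was higher than in shp53 cells in the same 3 groups, by 0.68 ± 0.12 (adjusted p = 0.00131), 0.87 ± 0.12 (adjusted p = 0.000382) and 0.92 ± 0.12 (adjusted p = 0.000372). Apaf1 was higher in RASV12-first than in shp53 cells (1.34 ± 0.21, adjusted p = 0.000592), and so was Ptp4a3 (0.84 ± 0.21, adjusted p = 0.00755). Sesn1, highest in shp53 cells, was lower in RASV12-first (-0.80 ± 0.17, adjusted p = 0.00292) and shp53-first cells (-1.15 ± 0.17, adjusted p = 0.000457). Abhd4, Bbc3, Ei24, Sesn2 and Xpc were called in none of the 7 comparisons by limma, and 8 of their 35 tests had an unadjusted p under 0.05, those of Abhd4, Ei24 and Xpc. Sesn2 ranged between 0.80 and 1.83 over the 12 arrays and Bbc3 between 0.73 and 1.79.

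Other genes of the pathway were read from lists, beside 28.6% of all genes called between the hairpin groups and RASV12 cells. Of 13 tested p53-induced genes outside the 33, 6 fell and 2 rose in this comparison (61.5%), with a median of -0.44. They include Lif, a cytokine (-1.98 ± 0.21, adjusted p = 0.00013), beside Cdkn1a and Mdm2. Of 17 tested regulators of p53, 3 fell and 2 rose (29.4%, near the share of all genes): Trp53 and Mdm2 were among the falls, and the p53 phosphatase Ppm1d (0.61 ± 0.14, adjusted p = 0.0102) and the ubiquitin ligase Cop1 (0.32 ± 0.09, adjusted p = 0.0283) rose. Of 12 mitosis genes 5 rose in the hairpin groups (41.7%, and 10 at an unadjusted p under 0.05), with a median of 1.51 and all 12 differences above 0. Cdc25c, a phosphatase that starts mitosis, was among them (2.07 ± 0.49, adjusted p = 0.0107). The number called moved between 1 and 12 over the fits that left out 1 array. The median level of the mitosis genes was 0.99 to 3.16 on the RASV12-first arrays, 0.40 to 2.58 on the shp53-first arrays and 1.36 to 1.76 on the shp53 arrays, against -0.06 to 0.55 on the RASV12 arrays. Between RASV12-first and shp53-first cells limma called none of the 12 mitosis genes, and 0 had an unadjusted p under 0.05. Of 11 genes of the RAS-ERK output, 8 were higher and 1 lower in RASV12-first than in shp53 cells, where 45.5% of all genes were called. In shp53-first cells 6 were higher and 1 lower (37.6% of all genes called), and in RASV12 cells 6 and 1 (27.1% of all genes called). In RASV12-first against shp53-first cells 2 of them were higher, the transcription factor Etv4 (1.02 ± 0.19, adjusted p = 0.00445) and the ERK phosphatase Dusp4 (2.04 ± 0.41, adjusted p = 0.00699). That is 18.2% of the 11, near the 15.8% of all genes called in this comparison. The ATF4 stress response also induces Sesn2. Of 10 of its genes, 6 were lower than in shp53 cells in RASV12-first, 6 in shp53-first and 4 in RASV12 cells. Of all genes 23.8, 20.3 and 12.8% were lower there. In the hairpin groups against RASV12 cells 2 of the 10 rose (20%, under the 28.6% of all genes called).

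Markers of other cell types were read in the same way. Of 10 fibroblast markers 4 rose in the hairpin groups against RASV12 cells (40%, against 28.6% of all genes called). In RASV12-first against shp53-first cells 2 were lower (20%, near the 15.8% of all genes called). Against shp53 cells, 4 were lower in each of RASV12-first, shp53-first and RASV12 cells, and 1 was higher in RASV12-first cells. Of all genes 45.5, 37.6 and 27.1% were called there. The 1 of 5 skeletal muscle markers that passed the filter, Des, did so only through the shp53 cells, where it was high. Its differences from shp53 cells come with that selection and are given as description. Des was at least 6.58-fold lower in RASV12-first and at least 6.97-fold lower in shp53-first than in shp53 cells (limma adjusted p = 6.66e-05 and 0.000128). It was also lower in RASV12 than in shp53 cells (-2.63 ± 0.50, adjusted p = 0.00329). The 1 of 7 epithelial markers, Krt18, was called in 1 comparison, higher in RASV12 than in shp53 cells (3.24 ± 0.80, adjusted p = 0.0125). Of 5 endothelial markers 3 passed the filter, and Cdh5 fell in the hairpin groups against RASV12 cells (-2.28 ± 0.50, adjusted p = 0.00709) and was at least 2.61-fold higher in RASV12-first than in shp53-first cells (adjusted p = 0.0096). The part of these markers in the targets' values was not tested.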

How the data were processed

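RNA of mouse embryonic fibroblasts was labelled with Cy3 and hybridised to 12 one-colour Agilent arrays. Per the file headers, the authors deposited a processed signal intensity for each spot, corrected for background within the array and not scaled between arrays, with median pixel intensities of spot and local background. The deposited flags are 0 or 1 for each spot. The headers name Feature Extraction 11.5.1.1 and the submitters' processing notes 10.7.3.1, and which applies is not settled here. The authors also deposited log2 values for each probe, an alternative here, which followed the rebuilt values with r of at least 0.990.

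From 39429 probes, flagged spots were left out (0.333% of values), the log2 signal was set relative to the array's 75th percentile, and replicate spots were averaged. A probe was kept where some group had it well above background on each of its 3 arrays (23899 probes), and the brightest stood for its gene. Accessions were named through RefSeq. All 12 arrays entered 1 limma fit (limma 3.58.1, R 4.3.3, version 1.17.8 of data.table) with a mean per group, and 7 contrasts were tested with Benjamini-Hochberg adjustment over 14444 genes. The fit was tested on simulated data with independent errors. These hold neither close pairs nor arrays that deviate together, so the test does not cover that structure. Where a group was not well above background, a fold is a bound, except for Eda2r in RASV12-first against shp53-first cells. The number of arrays limits the precision.

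The members and the further lists were chosen with earlier results of these data known. All 33 members are named, with values for those called in the first or second comparison, and up to 4 genes of a further list, 1 of which is not reported here. The replicate number is the slide. Same-numbered arrays of RASV12-first and shp53-first cells deviated together (r between 0.320 and 0.598), and the other pairs of groups had r between -0.341 and 0.259. Array 1 stood apart in both of these groups, and deviations from a shared group mean are linked. These r values are therefore not separate evidence that the numbers pair. Alternatives covered scaling, background correction, filter, probe choice, replicate block, left-out arrays and the averaging of close pairs.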

Additional observations from a re-analysis of the deposited data

How the results depend on the processing

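The number of called targets stayed within 1.5 times the reported one in 120 alternatives and moved further in 31, which follow, in the order hairpin groups against RASV12, RASV12-first against shp53-first, RASV12-first against RASV12, shp53-first against RASV12, RASV12-first against shp53, shp53-first against shp53, and RASV12 against shp53 cells. Normexp background correction called 11, 0, 10, 5, 1, 0 and 7 targets. Of all genes it called 3.99, 0.45, 5.7, 1.34, 2.41, 2.67 and 3.02%. In the 2 comparisons with 0, limma gave 5 and 5 targets an unadjusted p under 0.05. With the extreme local backgrounds replaced, a choice made after seeing the data, the second count was 3. A requirement of a 2-fold change left 12, 5, 13, 12, 8, 4 and 10. Averaging each close pair of arrays gave 7, 1, 9, 4, 6, 3 and 5, beside 4.82, 2.94, 10.3, 2.72, 17.2, 11.8 and 7.14% of all genes. Leaving out the arrays that stood apart gave 16 in the second comparison and 25 and 24 against shp53 cells. There 48, 72.3 and 68.4% of all genes were called. Leaving out 1 array gave 18 to 27, 3 to 10, 19 to 23, 13 to 21, 14 to 17, 6 to 10 and 13 to 17. A fit on the 2 groups alone called 4 in the second comparison, and with the replicate block, also added after seeing the data, 14 and 9 in RASV12-first and shp53-first against RASV12 cells. The replicate block in the fit of all arrays gave 23, 7, 23, 18, 15, 9 and 18. The cause of these differences was not tested.

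With normexp, directions turned for Eda2r in the first 3 comparisons (1.04, 0.66 and 1.20), for Rrm2b in the hairpin groups, RASV12-first and shp53-first, each against RASV12 cells (0.71, 0.85 and 0.28), and for Ddit4l (0.22) and Zmat3 (-0.059) in the second. Eda2r turned to 0.023 in RASV12-first against shp53 cells with replaced backgrounds. Dcxr turned to -0.40 and -0.48 against shp53 cells without the arrays that stood apart, in RASV12-first and shp53-first cells. Signal over background limits Eda2r most, and the 3 arrays a group limit all calls.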
